A study of Mus musculus with 8 samples.

Results

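The nuclear-encoded subunits of oxidative phosphorylation were followed across 4 groups of sorted mouse granulocyte progenitors (GPs). Members were the genes with an NM accession on the array whose symbol starts with Ndufa, Ndufb, Ndufc, Ndufs, Ndufv, Sdh (a to d), Uqcr, Cox4 to Cox8 or Atp5, leaving out Cox6a2. This name rule gave 92 genes with 123 probes, of 20279 named genes on the array. No measured value entered the rule. The same name starts also bring in 8 complex I assembly factors (Ndufaf), which are not subunits. They are included in every count and median over all members below, and form a group of their own where members are given by complex. RNA came from bone marrow GPs that carried the receptor Flt3 on their surface (Flt3+) or did not (Flt3-). The groups were Flt3+ GPs labelled Irf8KO, Flt3+ GPs of wild-type (WT) mice, Flt3- GPs labelled Irf8KO and Flt3- GPs of WT mice, with 2 arrays in each, 1 from each of 2 independent experiments. Irf8 encodes a transcription factor of myeloid cells, and the design calls the animals deficient for it. The sources used here do not give the allele, the strain, the age of the mice or the number of animals behind an array. The labels describe all cells as primary isolates.

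Oxidative phosphorylation is carried out by large enzyme complexes of the inner mitochondrial membrane. Complexes I and II take electrons from NADH and succinate, complex III passes them to cytochrome c, and complex IV hands them to oxygen. Complexes I, III and IV pump protons, and complex V, the ATP synthase, uses the gradient to make ATP. Most subunits are encoded in the nucleus and a few in mitochondrial DNA, and those of mitochondrial DNA were not analysed here. Some complex IV subunits have an isoform that is restricted to a tissue such as heart, muscle, lung or testis.

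Promoter sequence was looked at because nuclear respiratory factor 1 (NRF1), GABP, an ETS family factor, and YY1 are textbook regulators of many of these genes. Of the 92 members, 76 had a promoter of 300 bases (250 before and 50 after the start) in RefSeq on build GRCm38.p6. The NRF1 core letters GCATGCGC were present on either strand in 12 of these 76 members (15.8%), against 5.42% of the 11300 tested genes with a promoter and 2.71% of all 32851 promoters. The ETS and GABP letters CCGGAAG were present on either strand in 19 (25%), against 18.1% of tested genes and 8.86% of all promoters. The YY1 letters AAGATGGCG were present on either strand in 8 (10.5%), against 3.21% and 1.4%. The CCAAT box, CCAAT on either strand, was present in 34 (44.7%), against 42.9% and 37.4%. The end of the ETS and GABP letters can overlap the start of the YY1 letters by AAG, and no motif contains another. A match is a description of letters, and binding was not measured. The 120 bases before the start are shown for 4 members whose RNA was lower in wild-type Flt3+ than in wild-type Flt3- GPs, and for Sdhb and Cox7a2l, whose RNA did not pass that test. The 4 members with the largest such differences, Ndufab1, Cox7a2, Ndufa1 and Ndufb3, held no NRF1, ETS and GABP or YY1 letters and are not shown. Capitals mark NRF1 or ETS and GABP letters, and each sequence runs 5′ to 3′ on the strand of the gene.
Atp5k, subunit e of the ATP synthase, chr5:108434400-108434519, minus strand, NRF1 letters on both strands from base -50: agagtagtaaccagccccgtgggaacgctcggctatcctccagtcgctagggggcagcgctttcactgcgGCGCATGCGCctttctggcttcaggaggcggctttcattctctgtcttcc
Ndufa11, complex I, chr17:56717642-56717761, plus strand, NRF1 letters on both strands from base -60: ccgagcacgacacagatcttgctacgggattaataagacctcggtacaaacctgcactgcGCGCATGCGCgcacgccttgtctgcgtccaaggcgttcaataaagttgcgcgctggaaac
Sdhd, a membrane anchor of complex II, chr9:50603850-50603969, minus strand, ETS and GABP letters from base -46: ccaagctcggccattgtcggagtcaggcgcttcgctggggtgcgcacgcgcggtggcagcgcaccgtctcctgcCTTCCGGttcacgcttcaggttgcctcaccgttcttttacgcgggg
Cox6b1, the widely expressed form of complex IV subunit VIb, chr7:30626115-30626234, minus strand, ETS and GABP letters from base -28: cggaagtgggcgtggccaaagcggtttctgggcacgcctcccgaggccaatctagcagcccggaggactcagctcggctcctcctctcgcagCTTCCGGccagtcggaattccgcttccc
Sdhb, the iron-sulfur subunit of complex II, chr4:140961151-140961270, plus strand, NRF1 letters from base -54: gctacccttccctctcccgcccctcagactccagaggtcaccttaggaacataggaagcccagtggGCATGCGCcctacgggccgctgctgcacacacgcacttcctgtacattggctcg
Cox7a2l, a factor of respiratory supercomplexes, chr17:83514334-83514453, minus strand, neither motif in this window: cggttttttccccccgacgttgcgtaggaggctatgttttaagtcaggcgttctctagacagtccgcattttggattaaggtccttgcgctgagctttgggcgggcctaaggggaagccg

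Each level below is the log2 of a probe's signal divided by its array's 75th percentile, and a difference of 2 such levels is a log2 difference. Of the 59305 spots read on every array, 54.9 to 60.1% were well above background and 0 were saturated. Arrays of a group correlated at r = 0.9958 to 0.9975 across the genes tested. All 8 arrays lay on 1 slide and were read in 1 scan. WT arrays lay in row 1 and arrays labelled Irf8KO in row 2, with Flt3+ GPs in columns 1 and 2 and Flt3- GPs in columns 3 and 4, so slide position and group cannot be told apart. Flt3 RNA followed the sort, at 6.29 and 6.30 in Irf8KO Flt3+, 6.21 and 6.21 in WT Flt3+, 2.71 and 2.68 in Irf8KO Flt3-, and 1.69 and 1.66 in WT Flt3-. Irf8 RNA read 6.67 and 6.67 in Flt3+ arrays labelled Irf8KO, against 5.80 and 5.87 in WT Flt3+, and 5.63 and 5.53 in Flt3- arrays labelled Irf8KO, against 4.85 and 4.87 in WT Flt3-. The Irf8 probe was therefore higher on the arrays labelled Irf8KO. The sources do not place it inside or outside the altered sequence, so the label was not checked by it, and every genotype direction below rests on the labels. Among 11 granulocyte progenitor genes, Fcnb was not well above background on either WT Flt3+ array. The others were so on at least 1 array of every group, and Mpo and Ctsg on all 8 arrays. The levels of these genes differed between the groups, as given below.

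Of the 92 members, 88 passed the filter, which asked that both arrays of some group read the probe well above background. All 88 were well above background on all 8 arrays, so none passed through 1 group alone. The other 4 were tissue-restricted isoforms. Cox7b2 (testis), Cox8b (heart and muscle) and Cox8c (testis) were not well above background on any array, and Ndufa4l2, a hypoxia-inducible relative of Ndufa4, was so on 1 array. Those 4 were not tested.

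Oxidative phosphorylation RNA was highest in WT Flt3- GPs and lowest in WT Flt3+ GPs, and the 2 populations labelled Irf8KO lay between them on this scale; with quantile normalization, which gives all arrays the same distribution of signals, WT Flt3- was still the highest but WT Flt3+ was no longer the lowest. The median over the 88 members was 5.21 and 5.23 on the 2 arrays of Irf8KO Flt3+, 5.16 and 5.19 in WT Flt3+, 5.32 and 5.32 in Irf8KO Flt3-, and 5.64 and 5.64 in WT Flt3-. By group means, 83 of the 88 members were highest in WT Flt3-, as were 35.6% of all 14106 genes tested, and 75 were lowest in WT Flt3+, as were 37.1% of all genes. With quantile normalization 69 were highest in WT Flt3-, and the lowest group was Irf8KO Flt3+ for 23, WT Flt3+ for 27 and Irf8KO Flt3- for 35. The 5 members with another highest group on the 75th percentile scale were Cox4i2, Cox6b2, Cox7a2l and Ndufb11 in Irf8KO Flt3-, and Cox7a1 in Irf8KO Flt3+. The 13 members with another lowest group were 8 in Irf8KO Flt3+, among them Atp5k, Uqcrq and Ndufb6, 4 in Irf8KO Flt3- (Ndufa4, Ndufaf4, Ndufaf7 and Sdhb), and Cox7a2l in WT Flt3-. The RNA of bulk populations was measured, so fewer cells of a type and less RNA per cell cannot be told apart.

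**Figure D1:**
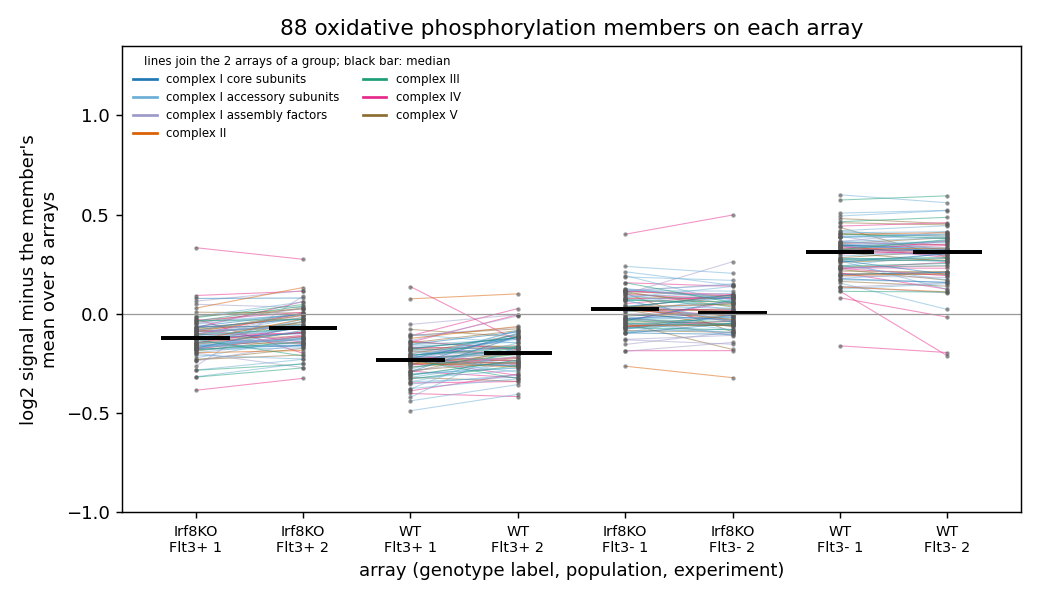
Log2 signal of each of the 88 members minus its own mean over the 8 arrays (y axis), for each array (x axis); grey points are members, thin lines join the 2 arrays of a group and are coloured by complex, and black bars are medians over members. The bars of the 2 WT Flt3- arrays are the highest and those of the 2 WT Flt3+ arrays the lowest on this 75th percentile scale; with quantile normalization 69 members were highest in WT Flt3- and 27 lowest in WT Flt3+.

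The first comparison asked how the populations differed in wild-type mice. Oxidative phosphorylation RNA was lower in Flt3+ than in Flt3- GPs: 84 of 88 members were called lower and 0 higher by limma at a Benjamini-Hochberg adjusted p under 0.05 over all genes tested, where 39.1% of all genes were called lower and 22.7% higher. The 2 Flt3+ arrays lay below both Flt3- arrays for 86 members, as they did for 49.8% of all genes. The median log2 difference was -0.51, a 1.43-fold lower signal, beside -0.11 for all genes tested. At least 1.5-fold lower were 28 members, as were 12.1% of all genes. With quantile normalization 59 members were called lower and 2 higher, with a median of -0.22 and with 29.2% of all genes called lower and 29.8% higher.

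All 5 complexes had members called lower. Of complex I, 7 of 7 core subunits, which hold the flavin and the iron-sulfur clusters, and 29 of 29 accessory subunits were called lower, with medians of -0.48 and -0.57. Ndufab1, the mitochondrial acyl carrier protein and a complex I subunit, read 0.09 and 0.17 in WT Flt3+, against 1.17 and 1.13 in WT Flt3-. The groups lay far apart relative to their spread, and the difference of -1.03 (SE 0.060, adjusted p = 4.61e-05, limma) was the largest of all members. Ndufa1, a small membrane subunit, read 4.76 and 4.78 in WT Flt3+, against 5.61 and 5.63 in WT Flt3-, a difference of -0.85. Ndufb3, of the membrane arm, read 4.24 and 4.33 in WT Flt3+, against 5.10 and 5.13 in WT Flt3-, a difference of -0.83. Of the core, Ndufv1, which binds NADH and the flavin FMN, differed by -0.49 and Ndufs1, a subunit with iron-sulfur clusters, by -0.46. Both calls were lost with quantile normalization (-0.13 and -0.15, adjusted p = 0.0615 and 0.0598, limma), where 3 of 7 core subunits, 22 of 29 accessory subunits and 7 of 8 assembly factors were called lower. All 8 assembly factors were called lower, at a median of -0.42, from Ndufaf8 at -0.56 to Ndufaf7 at -0.21, the call that was lost with quantile normalization.

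In complex II, which is also the succinate dehydrogenase of the citrate cycle, 3 of 4 subunits were called lower. Sdhd, a membrane anchor, read 5.29 and 5.26 in WT Flt3+, against 5.93 and 5.94 in WT Flt3-, with a difference of -0.66 (SE 0.037, adjusted p = 3.85e-05, limma). Sdhc, the other anchor, differed by -0.58 and Sdha, the flavoprotein, by -0.29. Sdhb did not follow them. It read 5.73 and 5.76 in WT Flt3+, against 5.79 and 5.77 in WT Flt3-, and its difference of -0.04 (SE 0.051) was not called. With quantile normalization Sdhb was called higher by 0.34, and the difference of Sdha was 0.03 and was not called.

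All 8 complex III members were called lower at a median of -0.56. Uqcrq, the small subunit of the ubiquinone-binding region, read 5.72 and 5.78 in WT Flt3+, against 6.56 and 6.58 in WT Flt3-, a difference of -0.82 (SE 0.044, adjusted p = 3.26e-05, limma). Uqcrc1, a core protein, read 4.17 and 4.25 in WT Flt3+, against 4.94 and 4.97 in WT Flt3-, a difference of -0.75. The Rieske iron-sulfur protein Uqcrfs1 differed by -0.42. The smallest called difference of the complex was that of Uqcrh, the hinge protein, at -0.30, which was 0.10 and not called with quantile normalization, where 6 of the 8 were called lower.

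In complex IV, 12 of 15 tested members were called lower at a median of -0.52. Cox7a2, the widely expressed form of subunit VIIa, read 4.69 and 4.67 in WT Flt3+, against 5.53 and 5.55 in WT Flt3-, with a difference of -0.86 (SE 0.041, adjusted p = 2.28e-05, limma). Cox5a differed by -0.59 and Cox4i1, the common form of subunit IV, by -0.42. Ndufa4, first described in complex I and now counted to complex IV, had the smallest called difference, -0.27, and stood at 0.09 and was not called with quantile normalization. The call of Cox4i1 was also lost there (-0.10, adjusted p = 0.0983, limma), and 10 of 15 members were called lower and 1 higher. The 3 members that were not called were Cox4i2 (-0.03), Cox7a1 (-0.22) and Cox7a2l (0.10), described below with the isoforms.

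All 17 complex V members were called lower at a median of -0.51. Atp5g1, one of the genes for the proton-carrying subunit c of the ring, read 6.28 and 6.26 in WT Flt3+, against 7.08 and 7.05 in WT Flt3-. Its difference was -0.80 (SE 0.038, adjusted p = 2.18e-05, limma). Atp5g2 and Atp5g3 also encode subunit c and differed by -0.25, the smallest value of the complex, and by -0.51. Atp5k, whose promoter is shown above, read 5.38 and 5.37 in WT Flt3+, against 6.03 and 6.01 in WT Flt3-, a difference of -0.65. The catalytic subunit Atp5b differed by -0.52 and its partner Atp5a1 by -0.43. With quantile normalization 9 of 17 were called lower at a median of -0.16, and Atp5a1 (-0.02), Atp5g2 (-0.04) and Atp5g3 (-0.16) were not called.

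**Figure D2:**
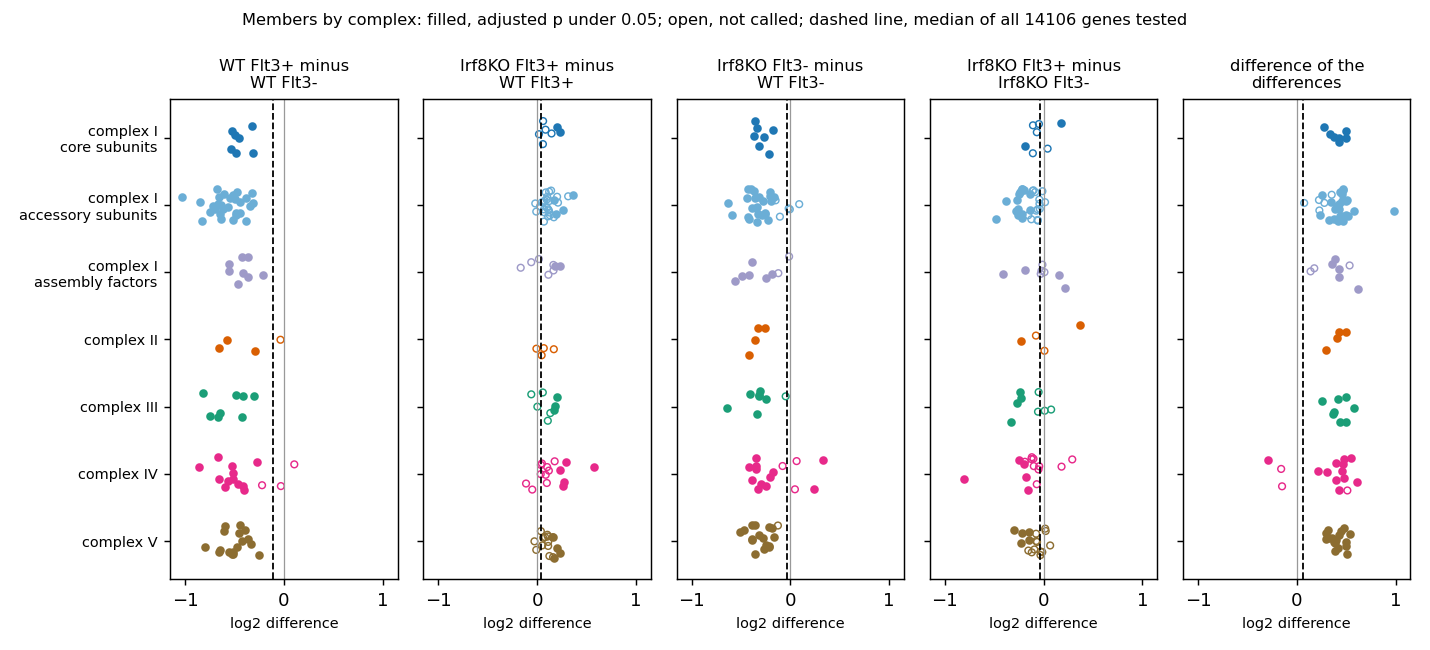
Log2 difference (x axis) of each tested member, by complex (y axis), for WT Flt3+ minus WT Flt3-, Irf8KO minus WT in Flt3+ and in Flt3- GPs, Irf8KO Flt3+ minus Irf8KO Flt3-, and the Irf8KO minus WT difference in Flt3+ less that in Flt3-. Filled points passed an adjusted p under 0.05 in limma, and dashed lines are the medians of all 14106 genes; on this 75th percentile scale 84 of 88 points are called lower in the first panel and 20 called higher in the second, where the median of members was at -0.00065 with quantile normalization.

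The next comparison set Irf8KO against WT in Flt3- GPs. Of 88 members, 74 were called lower and 2 higher, where 27.2% of all genes tested were called lower and 16.5% higher. The median difference was -0.32, a 1.25-fold lower signal, beside -0.03 for all genes. The 2 Irf8KO arrays lay below both WT arrays for 80 members, as they did for 42.7% of all genes. This comparison and the one above share the WT Flt3- arrays, so their values for a member are not independent. With quantile normalization 56 members were called lower and 3 higher, at a median of -0.17. The shares of all genes given above were taken without it and do not apply to these 2 counts.

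By complex, the calls lower were 7 of 7 core and 24 of 29 accessory subunits of complex I, 6 of 8 assembly factors, 4 of 4 in complex II, 7 of 8 in complex III, 10 of 15 in complex IV and 16 of 17 in complex V. With quantile normalization they were 4, 16, 5, 3, 6, 10 and 12 in the same order. Uqcrq had the largest difference, with 5.94 and 5.93 in Irf8KO Flt3-, against 6.56 and 6.58 in WT Flt3-. Its groups did not overlap, and it was lower by 1.56-fold (log2 difference -0.64, SE 0.044, adjusted p = 0.000373, limma). Ndufab1 read 0.56 and 0.49 in Irf8KO Flt3-, against 1.17 and 1.13 in WT Flt3-, a difference of -0.63. Ndufb6, a membrane-arm subunit, read 4.02 and 3.99 in Irf8KO Flt3-, against 4.58 and 4.61 in WT Flt3-, a difference of -0.59. These 3 were the members called with at least a 1.5-fold difference, as were 5.32% of all genes in the lower direction.

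Other members led their groups. Ndufaf2, a complex I assembly chaperone, read 2.52 and 2.56 in Irf8KO Flt3-, against 3.07 and 3.12 in WT Flt3-, a difference of -0.56. Atp5k read 5.51 and 5.51 in Irf8KO Flt3-, against 6.03 and 6.01 in WT Flt3-, a difference of -0.51. Sdhb, level between the wild-type populations, read 5.40 and 5.34 in Irf8KO Flt3-, against 5.79 and 5.77 in WT Flt3-. It was called lower by 1.33-fold (log2 difference -0.42, SE 0.051, adjusted p = 0.00198, limma) and was the lowest of the 4 complex II subunits in this comparison. The 10 core-set subunits (Ndufs1, Ndufv1, Sdha, Sdhb, Uqcrc1, Uqcrfs1, Cox4i1, Cox5a, Atp5a1 and Atp5b) were all called lower, between -0.42 and -0.18. With quantile normalization 8 of these 10 calls were kept. Sdha was lost there (-0.09, adjusted p = 0.101, limma). The call of Cox4i1 (-0.18) was lost with only the 2 groups in the fit, without either WT Flt3- array and without the first Irf8KO Flt3- array. The call of Atp5a1 (-0.18) was lost with quantile normalization, at an adjusted p of 0.0697, without either WT Flt3- array, and without the first Irf8KO Flt3- array.

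In Flt3+ GPs the comparison of Irf8KO with WT gave fewer calls. Of 88 members, 20 were called higher and 0 lower, where 16.2% of all genes tested were called higher and 12.6% lower. The median difference was 0.11, beside 0.04 for all genes. With quantile normalization it was -0.00065, and 7 members were called higher and 4 lower. Shares of all genes in this comparison are those without quantile normalization, so they are not set against the 7 and 4. The 20 calls became 8 with normexp background correction, 11 without the filter on dim probes and 5 with only the 2 groups in the fit. Leaving out 1 array left 3 without the second Irf8KO Flt3+ array, 6 without the first, 9 without the first WT Flt3+ array and 13 without either WT Flt3- array. The 2 Irf8KO arrays lay above both WT arrays for 65 members, as they did for 38.7% of all genes.

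By complex, the calls higher were 2 of 7 core and 4 of 29 accessory subunits of complex I and 2 of 8 assembly factors. They were 0 of 4 in complex II, 3 of 8 in complex III, 5 of 15 in complex IV and 4 of 17 in complex V. Across all genes 16.2% were called higher, and no complex was tested against that share. In complex II Sdhc had the highest difference, 0.17, at an adjusted p of 0.0538 in limma. Its other probe gave -0.05 and was not called in a limma fit of every probe. There the other probe of Sdhb was called lower, at -0.19 (adjusted p = 0.0344, limma), while the one used gave -0.01 and was not called. With quantile normalization the medians of the complex I core and of complexes II, IV and V were below 0. Ndufab1 read 0.43 and 0.55 in Irf8KO Flt3+, against 0.09 and 0.17 in WT Flt3+, and was higher by 0.36 (SE 0.060, adjusted p = 0.00886, limma). Its arrays did not overlap between the groups, but the call was lost without the second Irf8KO Flt3+ array, at an adjusted p of 0.0508. Cox7a2 read 4.91 and 4.97 in Irf8KO Flt3+, against 4.69 and 4.67 in WT Flt3+, a difference of 0.26. Cox7b, another small subunit of complex IV, read 6.20 and 6.22 in Irf8KO Flt3+, against 5.94 and 5.95 in WT Flt3+, a difference of 0.27. Of the core set Atp5a1 (0.23), Uqcrfs1 (0.18) and Atp5b (0.16) were called higher. These 3 calls were lost with quantile normalization and with only these 2 groups in the fit, and Atp5b then stood at -0.0058 under quantile normalization. None of the members called reached 1.5-fold in this comparison, where 3.96% of all genes were called at least 1.5-fold higher.

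Within the arrays labelled Irf8KO, 33 of 88 members were called lower in Flt3+ than in Flt3- GPs and 4 higher, where 23.7% of all genes were called lower and 22% higher. The median difference was -0.10, beside -0.03 for all genes. The 2 Flt3+ arrays lay below both Flt3- arrays for 62 members, as they did for 41.8% of all genes. With quantile normalization 16 were called lower and 11 higher at a median of -0.0035, with normexp 19 were called lower, and 16 and 20 were called lower without the first Irf8KO Flt3+ and the first Irf8KO Flt3- array. The counts under quantile normalization are not read against the shares of all genes above, which were taken without it. This comparison shares its arrays with both genotype comparisons. The accessory subunits of complex I gave 15 of the 33 calls. Ndufb3 read 4.40 and 4.45 in Irf8KO Flt3+, against 4.92 and 4.89 in Irf8KO Flt3-, and was lower by 1.39-fold (log2 difference -0.48, SE 0.048, adjusted p = 0.000523, limma). Uqcrc1 differed by -0.33 and Atp5g1 by -0.30, and the call of Atp5g1 was lost with quantile normalization (-0.09, adjusted p = 0.0654, limma). Sdhb was higher, at 5.69 and 5.79 in Irf8KO Flt3+, against 5.40 and 5.34 in Irf8KO Flt3-, a difference of 0.37 (SE 0.051, adjusted p = 0.00197, limma). Among the other members called higher were the assembly factors Ndufaf7 (0.21) and Ndufaf6 (0.16).

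The difference of the differences, the Irf8KO minus WT difference in Flt3+ GPs less that in Flt3- GPs, tested whether the genotype difference depended on the population. It was called above 0 in 76 of 88 members and below 0 in 1, where 21.2% of all genes were called above and 9.52% below. The median was 0.42, beside 0.07 for all genes. With quantile normalization 36 members were called above 0 and 2 below at a median of 0.20. Those 2 counts are not read against the shares of all genes above, which were taken without quantile normalization. In core-set members it ran from 0.22 in Cox4i1 to 0.50 in Ndufs1, and all 10 were called. With quantile normalization 4 of the 10 calls were kept, those of Uqcrfs1, Cox5a, Atp5a1 and Atp5b. The 6 lost were Sdha (0.04), Sdhb (0.11), Cox4i1 (0.12), Ndufv1 (0.16), Uqcrc1 (0.20) and Ndufs1 (0.27), at adjusted p values of 0.0535 to 0.662 in limma. The largest values were 0.99 in Ndufab1 (SE 0.085, adjusted p = 0.00194, limma), 0.62 in Ndufaf6 and 0.61 in Cox7a2. Those 3 were called with at least a 1.5-fold ratio, as were 5.15% of all genes above 0. All of complex V (17 of 17), complex III (8 of 8), complex II (4 of 4) and the complex I core (7 of 7) were called above 0. The counts were 24 of 29 among accessory subunits, 5 of 8 among assembly factors and 11 of 15 in complex IV. With quantile normalization the calls above 0 were 6 of 17 in complex V, 3 of 8 in complex III, 1 of 4 in complex II, 1 of 7 in the complex I core, 12 of 29, 5 of 8 and 8 of 15.

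The isoforms that textbooks place in single tissues, and Cox7a2l, are described one by one. Cox6b2, the testis isoform of subunit VIb, read 1.82 and 1.88 in Irf8KO Flt3+, 1.91 and 1.88 in WT Flt3+, 2.60 and 2.70 in Irf8KO Flt3-, and 2.43 and 2.39 in WT Flt3-. It was lower in Flt3+ than in Flt3- GPs in both genotypes, by -0.80 in Irf8KO (adjusted p = 8.35e-05, limma) and by -0.52 in WT. In Irf8KO it was the 1 member called at least 1.5-fold lower, as were 8.63% of all genes. In Flt3- GPs it was called higher in Irf8KO by 0.24 (adjusted p = 0.0131, limma), the opposite direction to the widely expressed Cox6b1, at -0.25. That call was lost without either WT Flt3- array or the second Irf8KO Flt3- array, at adjusted p values of 0.0519, 0.0776 and 0.0569 in limma. Its difference of the differences, -0.29, was the 1 called below 0, and with quantile normalization Cox6b2 and Cox7a2l were called below 0. The call of Cox6b2 was lost with no filter on dim probes and in 7 of the 8 fits that left out an array.

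Cox7a2l, which takes part in joining complexes III and IV into supercomplexes, read 6.99 and 7.02 in Irf8KO Flt3+, 6.76 and 6.90 in WT Flt3+, 7.06 and 7.04 in Irf8KO Flt3-, and 6.74 and 6.71 in WT Flt3-. It was called higher in Irf8KO than in WT Flt3- GPs by 0.33 (SE 0.056, adjusted p = 0.00602, limma) and kept that call under every alternative tried. Both other probes of Cox7a2l gave the same sign there, at 0.36 and 0.34. Between the wild-type populations the probe used was not called, at 0.10, and with quantile normalization it was called higher by 0.49. In a limma fit of every probe, 1 of the other probes was called higher there, at 0.17 (adjusted p = 0.0167, limma). The remaining probe gave 0.15 and was not called, so this result depends on the probe. Cox7a1, the heart and muscle isoform of subunit VIIa, read -0.55 and -0.61 in Irf8KO Flt3+, -1.12 and -1.20 in WT Flt3+, -0.92 and -0.82 in Irf8KO Flt3-, and -0.77 and -1.10 in WT Flt3-. Its Irf8KO Flt3+ arrays were the 2 highest and its WT Flt3+ arrays the 2 lowest, with a difference of 0.57 (SE 0.11, adjusted p = 0.0143, limma). That call was lost without either Irf8KO Flt3+ array or without the second WT Flt3+ array, at adjusted p values of 0.0733, 0.0623 and 0.0572. Cox4i2, the lung isoform of subunit IV, ran from -0.55 to -0.21 over the 8 arrays, with both Irf8KO Flt3+ arrays below all 4 Flt3- arrays, and it was called in none of the 5 comparisons.

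**Figure D3:**
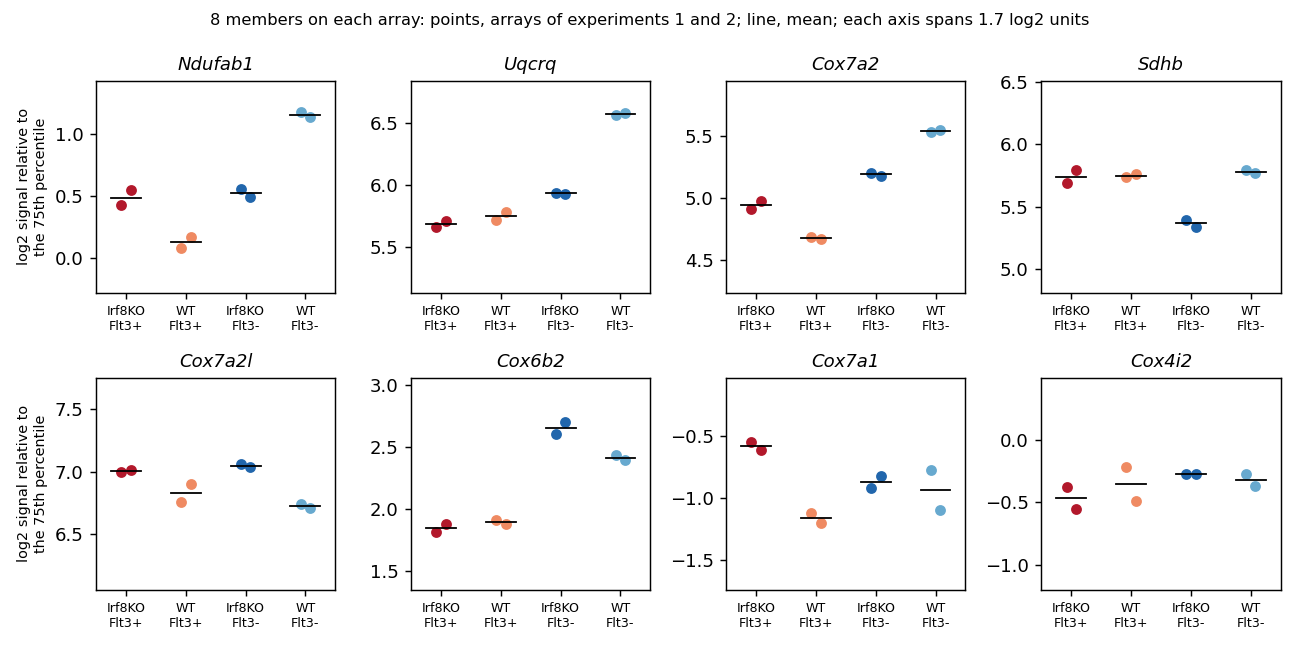
Log2 signal on the 75th percentile scale (y axes, each spanning 1.7 log2 units) of 8 members in Irf8KO Flt3+, WT Flt3+, Irf8KO Flt3- and WT Flt3- GPs; points are the 2 arrays of a group and lines their means. Ndufab1, Uqcrq and Cox7a2 are highest in WT Flt3-, Sdhb is lowest in Irf8KO Flt3-, and Cox7a2l and Cox6b2 are highest in Irf8KO Flt3-.

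Other genes of the pathway were taken as lists, and their counts are read against the shares of all genes called, which were 39.1% lower and 22.7% higher between the wild-type populations, 27.2% lower and 16.5% higher in Irf8KO against WT Flt3- GPs, and 16.2% higher in Irf8KO against WT Flt3+ GPs. Of 34 tested assembly factors outside the members, 27 were called lower and 0 higher in wild-type Flt3+ against Flt3- GPs, at a median of -0.34, with Acad9, a complex I assembly factor, the lowest of those called at -0.71. Cox17, a copper chaperone of complex IV, averaged -4.55 in WT Flt3+ and -3.55 in WT Flt3-, a larger difference that was not called (SE 0.38, adjusted p = 0.063, limma). Against WT, Irf8KO Flt3- GPs had 16 of the 34 called lower and 0 higher, with Ecsit, another complex I factor, at -0.61. Of 15 electron and substrate carriers, 14 were called lower in wild-type Flt3+ against Flt3- GPs and 12 in Irf8KO against WT Flt3- GPs, with 0 called higher in each. Cycs, cytochrome c, differed by -0.92 and by -0.55 in these comparisons, and Etfb, of the electron transfer flavoprotein, by -1.26 in the first.

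Of 17 citrate cycle and pyruvate dehydrogenase genes, 17 were called lower between the wild-type populations and 13 in Irf8KO against WT Flt3- GPs, with 0 higher. Idh3a, of isocitrate dehydrogenase, was lowest in both, at -0.83 and -0.65. Of 77 mitochondrial ribosomal protein genes, which serve the translation of the mitochondrially encoded subunits, 72 were called lower and 1 higher (Mrpl52, 0.32) between the wild-type populations. Of the 77, 63 were called lower in Irf8KO against WT Flt3- GPs, at a median of -0.31, with Mrpl16 at -0.78. In Flt3+ GPs, Irf8KO against WT, 13 of the 77 were called higher and 2 lower, at a median of 0.11, a share close to that of all genes. With quantile normalization each of these 4 lists kept a median below 0 in both comparisons, and the calls lower were 15, 11, 10 and 59 between the wild-type populations and 14, 9, 9 and 49 in Irf8KO against WT Flt3- GPs, in the order given. The calls higher were then 4, 1, 0 and 5 between the wild-type populations. In Irf8KO against WT Flt3- GPs they were 1, 0, 0 and 0. Shares of all genes given with these lists were taken without quantile normalization and do not apply to its counts.

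Between the wild-type populations, regulators of mitochondrial biogenesis were called in shares near those of all genes, 39.1% lower and 22.7% higher. Between the Irf8KO populations 6 of 13 were called higher and 1 lower, where 22% of all genes were called higher and 23.7% lower. Those counts were the same with quantile normalization. The difference of the differences was called above 0 in 5 of 13, beside 21.2% of all genes, and in 1 with quantile normalization. All shares of all genes given for the regulators were taken without quantile normalization and do not apply to the counts under it. Of 13, 6 were called lower and 3 higher in wild-type Flt3+ against Flt3- GPs at a median of -0.14, which was 0.07 with quantile normalization, where 3 were called lower and 4 higher. Esrra, an orphan nuclear receptor, differed by -0.46, Ppargc1b, a coactivator, by -0.30 and Gabpa, the DNA-binding subunit of GABP, by -0.27. The call of Gabpa was lost with quantile normalization, without the second WT Flt3+ array and without either WT Flt3- array. The differences of Nrf1 (-0.01) and of Tfam, the mitochondrial transcription factor (-0.09), were not called, and with quantile normalization Nrf1 was called higher by 0.15. Ppargc1a, a coactivator that induces these genes in muscle and brown fat, differed in the opposite direction to the members. It was well above background on both WT Flt3+ and both Irf8KO Flt3+ arrays and on 0 of the 4 Flt3- arrays. Its group means were -3.22 in Irf8KO Flt3+, -2.35 in WT Flt3+, -6.42 in Irf8KO Flt3- and -5.95 in WT Flt3-. It was at least 7.58-fold higher in WT Flt3+ than in WT Flt3- GPs (adjusted p = 0.00111, limma) and at least 3.23-fold higher in Irf8KO Flt3+ than in Irf8KO Flt3- GPs (adjusted p = 0.00258, limma). It passed the filter through the Flt3+ arrays, so these p-values rest on Flt3- signals at background. These bounds set the bright group's mean against the lowest signal called well above background on each dim array, or the probe's own where higher. In Irf8KO against WT Flt3- GPs, Ppargc1b (-0.48) and Tfam (-0.27) were among the 4 called lower, and 0 were called higher. Of all genes, 27.2% were called lower and 16.5% higher there. The call of Tfam was lost without either WT Flt3- array and without the first Irf8KO Flt3- array.

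Of the 24 members with several probes, 31 further probes could be set beside the one used. All 31 had its sign between the wild-type populations, and 30 of 31 had it in Irf8KO against WT Flt3- GPs, 25 in Irf8KO against WT Flt3+ GPs, 28 between the Irf8KO populations and 30 in the difference of the differences. No pair of probes was called in opposite directions. The 2 probes of Ndufb11 disagreed in size. For Irf8KO against WT Flt3- GPs the one used gave 0.09 and was not called, and the other gave 0.48 at an adjusted p of 0.00377 in a limma fit of every probe.

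The members' probes were bright, and in the brightest decile the median of the other genes had the members' sign. The 10th to 90th percentiles of those other genes ran from -0.73 to 0.12 between the wild-type populations, and had both signs in every comparison. Of the 88 members, 66 lay in the brightest decile of all genes tested by mean signal. In that decile, the median difference in wild-type Flt3+ against Flt3- GPs was -0.50 in members, beside -0.26 in the other genes. It was -0.31 in members, beside -0.10 in the others, for Irf8KO against WT Flt3- GPs. Members and others both stood at 0.11 for Irf8KO against WT Flt3+ GPs, and between the Irf8KO populations they stood at -0.11 and -0.05. For the difference of the differences the medians were 0.41 in members and 0.23 in the others. What part brightness has in the members' differences was not tested.

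**Figure D4:**
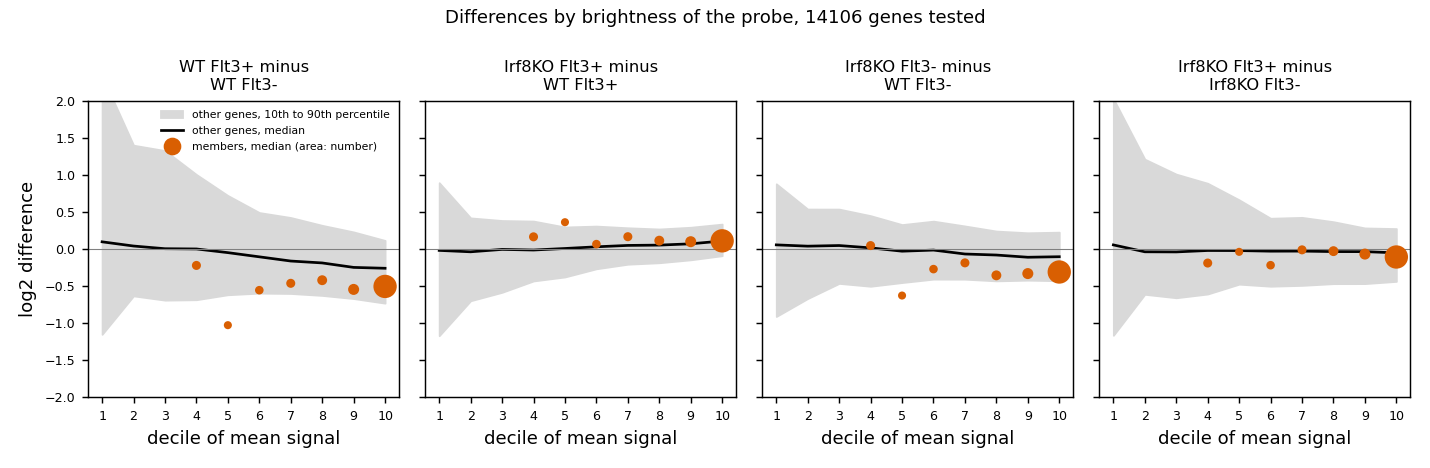
Log2 difference (y axis) by decile of mean signal over the 8 arrays (x axis, 14106 genes) for 4 comparisons; black lines are medians of genes outside the members, grey bands their 10th to 90th percentiles, and orange points the members' medians, with area by number of members; bands are cut off where they leave the axis. In the brightest decile members lie at -0.50, beside -0.26 for the others, in WT Flt3+ minus WT Flt3-, and both lie at 0.11 in Irf8KO Flt3+ minus WT Flt3+, where the median of members was at -0.00065 with quantile normalization.

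**Figure D5:**
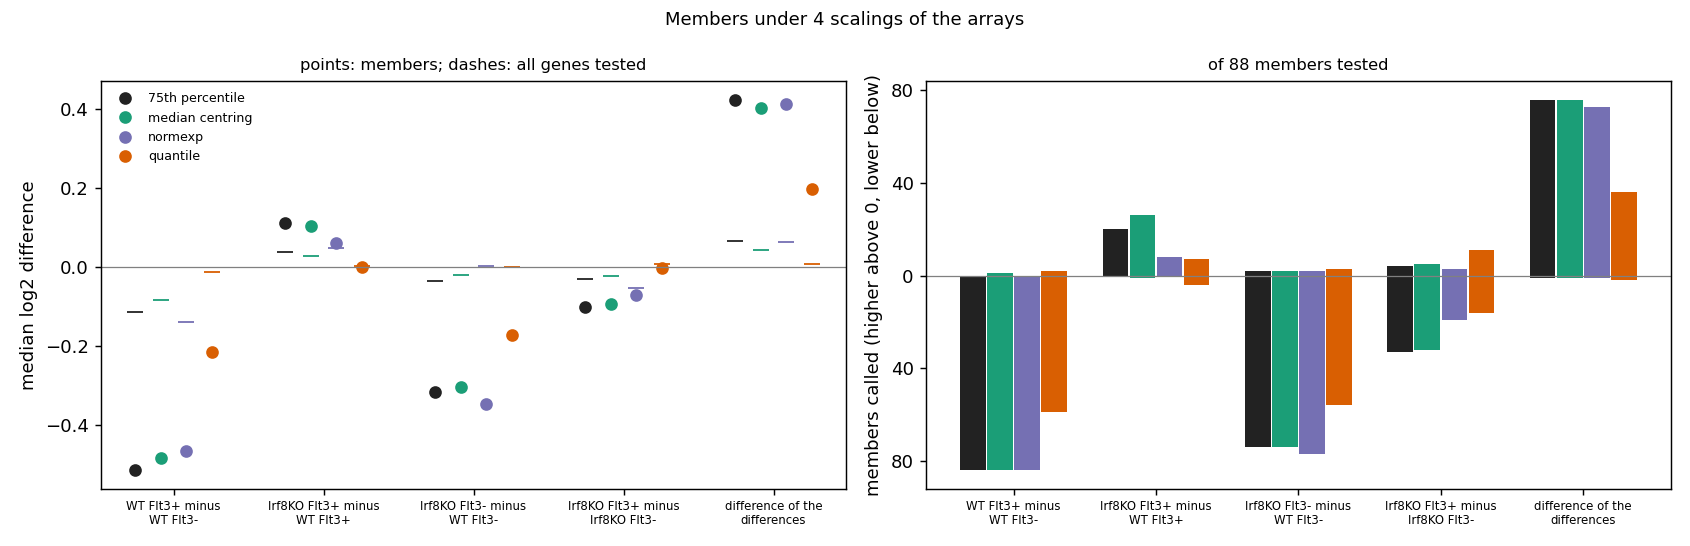
Left, median log2 difference of members (points) and of all genes tested (dashes) for the 5 comparisons (x axis) under 4 scalings of the arrays; right, members called higher (above 0) and lower (below 0) of 88. Between the wild-type populations the members' median was -0.51 with the 75th percentile and -0.22 with quantile normalization, and in Irf8KO against WT Flt3+ GPs it moved to -0.00065.

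Marker genes of cell types also differed between the groups. The order of the groups was not the same in all of the sums below. Summed linear signals relative to the 75th percentile of 11 granulocyte progenitor genes ran from 1406 to 1415 in Irf8KO Flt3+, 873.7 to 976.1 in WT Flt3+, 2762 to 3017 in Irf8KO Flt3- and 2388 to 2528 in WT Flt3- GPs. Of these 11, 9 were called lower and 0 higher in wild-type Flt3+ against Flt3- GPs, among them Elane, neutrophil elastase, at -4.68. The sum of 8 lymphoid genes was 235.3 to 255.3 in Irf8KO Flt3+, 119.5 to 126.8 in WT Flt3+, 4.81 to 5.17 in Irf8KO Flt3- and 4.32 to 4.41 in WT Flt3- GPs, and Rag1, Il7r and Ebf1 were not well above background on any Flt3- array. The sum of 9 mature neutrophil genes was 33.9 to 34.0 in Irf8KO Flt3-, against 16.7 to 17.1 in WT Flt3-, and 38.2 to 39.0 in Irf8KO Flt3+, against 8.66 to 8.81 in WT Flt3+. The sum of 9 erythroid genes was 9.33 to 9.85 in Irf8KO Flt3-, against 21.1 to 21.2 in WT Flt3-, and 20.2 to 20.3 in Irf8KO Flt3+, against 51.0 to 53.3 in WT Flt3+. The sum of 9 eosinophil, basophil and mast cell genes was 64.0 to 64.3 in Irf8KO Flt3-, against 137.5 to 137.9 in WT Flt3-, and 5.17 to 5.43 in Irf8KO Flt3+, against 13.3 to 14.1 in WT Flt3+. Their part in the members' differences was not tested.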

How the data were processed

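Total RNA was measured on 8 one-colour Agilent arrays. Per the file headers, intensities were extracted with Agilent Feature Extraction 10.7.3.1; the deposited processed signals are linear intensities on which no scaling between arrays was found. The authors' deposited series table holds the same intensities times 1 factor per array, on a linear scale and uncentred, with column medians of 28.7, 27.1, 29.9, 28.7, 27.5, 27.6, 26.9 and 28.0 (Irf8KO Flt3+, WT Flt3+, Irf8KO Flt3- and WT Flt3-, 2 arrays each), and was used as an alternative only. The headers' flags, written as scores of 0 or 1, gave outliers and probes well above background. Here control and outlier spots were left out, spots of a probe averaged and log2 values taken minus the array's 75th percentile. Probes were named by RefSeq accession (GRCm38.p6); 496 NM probes matched no gene, and 19 probes lacking a value were dropped. The brightest kept probe stood for a gene. All 8 arrays were fitted with 4 group means in limma 3.58.1 (R 4.3.3; 4 residual degrees of freedom, prior 1.77), tested on simulated data, with Benjamini-Hochberg adjustment over 14106 genes. The experiments are called independent, but how many animals each array holds is not stated, so p-values measure the spread between arrays. With 2 arrays a group, their number limits the precision. Normexp (offset 50) used the median spot signal, since the planned mean signal was not at hand. Other alternatives were quantile normalization, median centring, no filter, every probe, a replicate block, only the compared groups, and each array left out. Members, gene lists and tests were chosen with earlier results of these data known. Named genes were members called at 1.5-fold or more (at most 20 per comparison), the highest and lowest called member of each complex, a fixed core set and isoforms, and the highest and lowest called gene of each other list with 6 fixed regulators and carriers. Any other gene named, the printed promoters and the motif letters were chosen after values were seen. The values of some single genes are not reported here.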

Additional observations from a re-analysis of the deposited data

Results flagged for a closer look

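The Irf8KO minus WT difference was not the same in both populations for most members, by the limma test of the difference of the differences: 76 members were called above 0 and 1 below. The values of named members follow, each as the difference in Flt3+ less that in Flt3- GPs. In complex I and its assembly they were 0.99 in Ndufab1, 0.62 in Ndufaf6, 0.50 in Ndufs1, 0.43 in Ndufv1, 0.35 in Ndufaf1 and 0.24 in Ndufa13. In complex II they were 0.50 in Sdhc, 0.41 in Sdhb and 0.30 in Sdha. In complex III they were 0.58 in Uqcrq, 0.50 in Uqcrfs1, 0.41 in Uqcrc1 and 0.25 in Uqcrh. In complex IV they were 0.61 in Cox7a2, 0.43 in Cox5a, 0.22 in Cox4i1 and -0.29 in Cox6b2. In complex V they were 0.53 in Atp5g3, 0.43 in Atp5b, 0.41 in Atp5a1 and 0.29 in Atp5h. With quantile normalization 36 members were called above 0 and 2 below, which is not most members. Of the members listed, Ndufs1, Ndufv1, Ndufa13, Sdhb, Sdha, Uqcrc1, Uqcrh, Cox4i1, Atp5g3 and Atp5h lost their call there. The cause was not tested. No group holds 4 or more arrays, so no array could be tested for standing apart within its group.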

How the results depend on the processing

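Directions between the wild-type populations and in Irf8KO against WT Flt3- GPs were kept by the members' median under every setting tried. Of the scalings, quantile normalization moved the members' medians most. In the order WT Flt3+ against WT Flt3-, Irf8KO against WT in Flt3+, Irf8KO against WT in Flt3-, Irf8KO Flt3+ against Irf8KO Flt3-, and the difference of the differences, it gave members' medians of -0.22, -0.00065, -0.17, -0.0035 and 0.20. Members called higher and lower were then 2 and 59, 7 and 4, 3 and 56, 11 and 16, and 36 and 2. Of the 84 calls lower between the wild-type populations, 59 were shared, as were 55 of 74 in Irf8KO against WT Flt3- GPs. All genes tested then had a median of -0.01 between the wild-type populations, beside -0.11 with the 75th percentile, with 29.8% called higher and 29.2% lower. Among named genes called on the 75th percentile scale, with quantile normalization or on both, 12 turned sign under it. In wild-type Flt3+ against Flt3- GPs these were Sdhb (0.34), Uqcc3 (0.16), Nrf1 (0.15), Uqcrh (0.10), Ndufa4 (0.0902), Fh1 (0.0890), Sdha (0.0320) and Coq6 (0.0298). In Irf8KO against WT Flt3+ GPs it was Atp5b (-0.0058), and between the Irf8KO populations Atp5a1 (0.19), Cox5a (0.0655) and Cox4i1 (0.0123). Some named genes called on neither scale also turned sign, such as Cox5a in Irf8KO against WT Flt3+ GPs (0.10 to -0.015). The cause was not tested.

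Median centring gave medians of -0.48 between the wild-type populations, -0.30 in Irf8KO against WT Flt3- GPs and 0.40 for the difference of the differences, with 1 member called higher in the first comparison and 1 lower in Irf8KO against WT Flt3+ GPs. Normexp gave -0.47, 0.0593, -0.35 and -0.0721 for the first 4 comparisons, with 8 called higher in Irf8KO against WT Flt3+ GPs and 19 lower between the Irf8KO populations. Without the filter on dim probes, which adds genes to the adjustment, the medians were -0.49 between the wild-type populations and -0.30 in Irf8KO against WT Flt3- GPs, with 1 and 11 called higher in the first and second comparisons. Testing every probe gave 1 higher in the first comparison, 1 lower in the second, 5 higher in the third and a median of 0.41 for the last. Only the 2 groups in the fit left 5 called higher in Irf8KO against WT Flt3+ GPs. The deposited table moved no named call.

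Leaving out each array in turn gave, between the wild-type populations, medians of -0.53 to -0.49, 0 to 1 higher and 81 to 84 lower. For Irf8KO against WT Flt3+ GPs it gave medians of 0.0844 to 0.14, 3 to 21 higher and 0 lower. For Irf8KO against WT Flt3- GPs it gave -0.32 to -0.29, 1 to 2 higher and 55 to 73 lower. Between the Irf8KO populations it gave -0.12 to -0.0707, 1 to 5 higher and 16 to 33 lower. For the difference of the differences it gave 0.39 to 0.44, 55 to 77 above 0 and 0 to 1 below. A group left with 1 array was assumed to vary like the others. The named calls kept under every alternative were 34 of 48, 4 of 21, 20 of 33, 15 of 26 and 14 of 34 in the 5 comparisons.

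The main fit did not pair the arrays by experiment number, because no source of the study's methods names a block. Deviations of same-numbered arrays correlated between -0.0283 and 0.123 over all genes. Over the members they correlated at 0.358 for Irf8KO Flt3+ with WT Flt3+ and at -0.261 for the Irf8KO populations. For the other pairs they correlated between -0.00966 and 0.0999. With the experiment as a replicate block, 84 members were called lower between the wild-type populations, 19 higher and 1 lower in Irf8KO against WT Flt3+ GPs, 73 lower in Irf8KO against WT Flt3- GPs and 75 above 0 in the difference of the differences. With 2 arrays a group on 1 slide, precision is limited by the number of arrays, and 66 of 88 members lay in the brightest decile of genes.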
